A study of Mus musculus with 24 samples.

Results

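The 10 genes described here are the cyclin-dependent kinase (CDK) inhibitors and the D cyclins, which set when a cell passes from the G1 phase of its cycle into DNA synthesis. They were taken by symbol from tables of 26411 genes, namely the 4 Ink4 genes *Cdkn2a*, *Cdkn2b*, *Cdkn2c* and *Cdkn2d*, the 3 Cip/Kip genes *Cdkn1a*, *Cdkn1b* and *Cdkn1c*, and the 3 D cyclin genes *Ccnd1*, *Ccnd2* and *Ccnd3*. RNA was sequenced from mouse neural stem and progenitor cells (NSPCs), which are cultured cells that divide and can form neurons and glia. The cells came from the dorsal telencephalon, the forerunner of the cortex, of C57BL/6 embryos at E12.5 that were wildtype (WT; *Kat6a*+/+), heterozygous (HET KO; *Kat6a*+/–) or homozygous (HOM KO; *Kat6a*–/–) for a null allele of *Kat6a*, the gene of a histone acetyltransferase. In this constitutive allele, a deletion of exons puts a premature stop codon into the catalytic domain. Proliferating NSPCs were grown for 3 days in medium with FGF2 and EGF, and differentiating NSPCs for 3 days on a coated surface in 1% serum without these growth factors. There were 4 libraries in each of the 6 groups, each from cells of 1 embryo.

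D cyclins are induced by growth factors, bind the kinases Cdk4 and Cdk6 and start the phosphorylation of the retinoblastoma proteins, which frees E2F factors to turn on genes of DNA synthesis. Ink4 proteins bind Cdk4 and Cdk6 and keep D cyclins off them, whereas Cip/Kip proteins block the Cdk2 complexes and can also help D cyclin complexes assemble. In the embryonic cortex, D cyclins support the divisions of progenitors, and Cip/Kip proteins accompany their exit from the cycle, while *Cdkn2a* and *Cdkn2b* are kept almost silent by Polycomb proteins and rise with senescence.

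Library totals ranged from 7826660 to 40838203 counts, and the 10 genes had between 31 and 47528 counts per library, so that each passed the filter on low counts in every fit. *Kat6a* reads lay at 373 to 409 CPM, which are counts scaled to a common library total, in proliferating *Kat6a*+/+ and 334 to 389 CPM in *Kat6a*–/– NSPCs, and reads from outside the deleted exons do not check the genotype. The summed level of 9 stem and progenitor markers was 7275 to 14077 CPM over all libraries. In proliferating NSPCs, it was 8022 to 8912 CPM in *Kat6a*+/+ and 7275 to 8598 CPM in *Kat6a*–/– libraries. In differentiating NSPCs, it was 7771 to 9716 CPM in *Kat6a*+/+ and 9613 to 14077 CPM in *Kat6a*–/– libraries. The single markers went both ways there, with a median log2 fold-change of −0.71 in *Kat6a*–/– vs. *Kat6a*+/+ NSPCs, so the sum does not stand for each of them. In either condition, 3 of 4 *Kat6a*+/+ libraries held Y-linked reads, against 1 of 4 in *Kat6a*+/– and 1 of 4 in *Kat6a*–/–, so sex and genotype were partly confounded. One kit was used for RNA of proliferating and another for RNA of differentiating NSPCs, so kit and condition cannot be told apart. Among 6 embryo labels that occurred in both conditions, 1 (*Kat6a*+/+ replicate 1) did not match in sex between its 2 libraries. In bulk RNA, fewer cells of a type and less RNA per cell cannot be told apart.

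In proliferating *Kat6a*–/– vs. *Kat6a*+/+ NSPCs, 3 of the 10 genes rose (*Cdkn2a*, *Cdkn2b* and *Ccnd2*) and 3 fell (*Cdkn1b*, *Cdkn1c* and *Cdkn2d*) at a false discovery rate (FDR) under 0.05. The background over all 12276 tested genes was 16.2% called higher and 13.8% called lower. In differentiating NSPCs, 5 rose (*Cdkn2a*, *Cdkn2b*, *Cdkn1a*, *Ccnd1* and *Ccnd3*) and 4 fell (*Cdkn1c*, *Cdkn2c*, *Cdkn1b* and *Cdkn2d*), where 26.7% of 13339 genes were called higher and 27.7% lower. The *Kat6a*–/– and *Kat6a*+/+ libraries did not overlap in CPM for 6 of the 10 genes in proliferating and for 7 in differentiating NSPCs. The share of all tested genes without overlap was 31.3% and 26.9%, respectively. The median log2 fold-change of the 10 genes was 0.02 in proliferating NSPCs (all genes −0.00) and 0.39 in differentiating NSPCs (all genes −0.02). Ink4 and Cip/Kip genes lay on both sides of 0 in both conditions, and the 3 D cyclins did so in proliferating NSPCs and were all above 0 in differentiating NSPCs. With library totals in place of TMM scaling, the median of all genes in differentiating NSPCs was −0.17 and 31.7% instead of 49.1% of the called genes were higher, while none of the 10 genes changed direction among its calls.

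**Figure D1:**
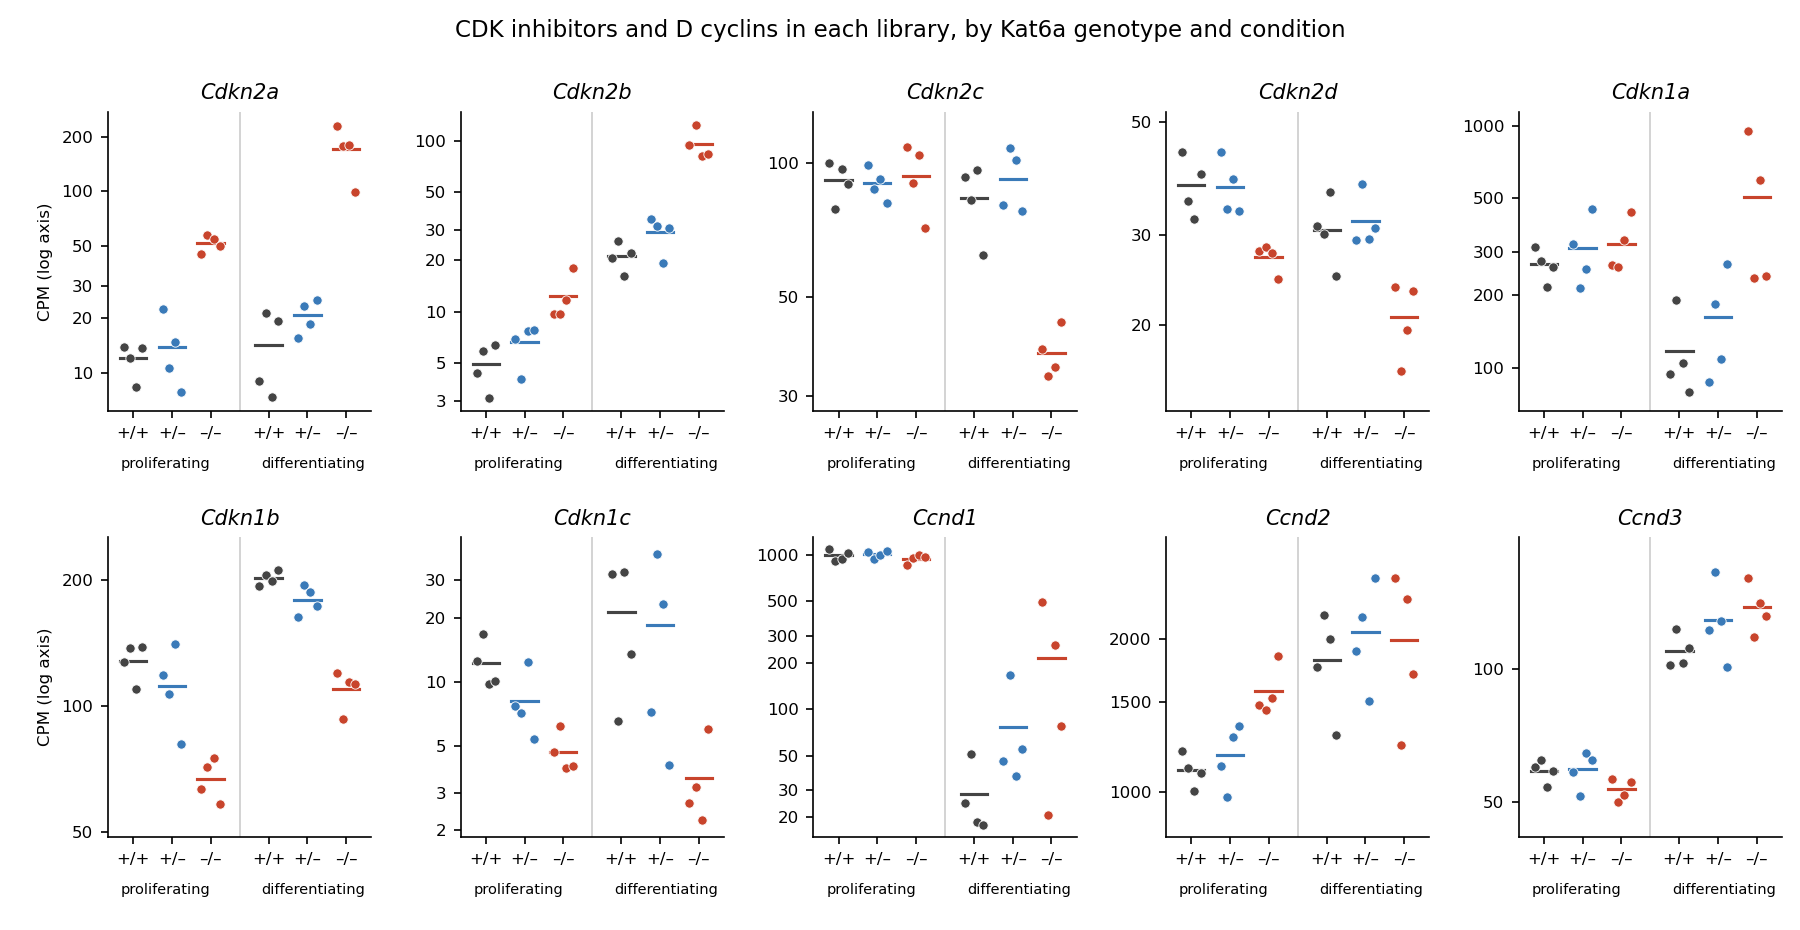
CPM of each gene in each library on a log axis, by genotype (dark, *Kat6a*+/+; blue, *Kat6a*+/–; red, *Kat6a*–/–) and condition, with a line at the mean of 4 libraries. All 4 *Kat6a*–/– libraries lie above the *Kat6a*+/+ range for *Cdkn2a* and *Cdkn2b* and below it for *Cdkn1b* and *Cdkn1c* in both conditions, whereas *Ccnd1* spreads from 20.5 to 499 CPM among differentiating *Kat6a*–/– libraries.

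**Figure D2:**
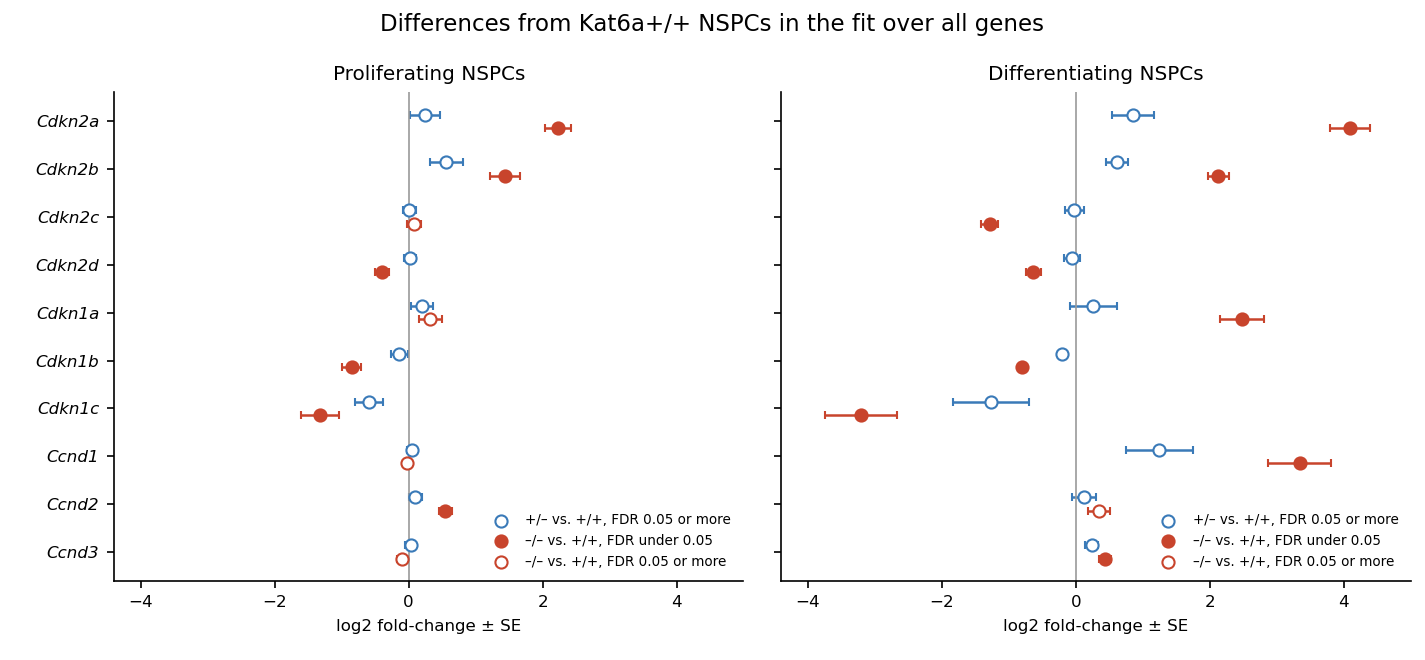
Log2 fold-change against *Kat6a*+/+ NSPCs with its standard error for *Kat6a*+/– (blue) and *Kat6a*–/– (red) NSPCs, left for proliferating and right for differentiating NSPCs, with filled points for an FDR under 0.05. *Cdkn2a* is the highest point in both panels at 2.23 and 4.10, *Cdkn1c* the lowest at −1.32 and −3.21, and no *Kat6a*+/– point is filled.

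*Cdkn2a* and *Cdkn2b* lie side by side on chromosome 4 of mm39, at 89192708 to 89212890 and 89223204 to 89229276 on the minus strand, 10314 bp apart. *Cdkn2a* has 2 start sites, at 89200429 and 89212890, whose transcripts share exons: Cdkn2a-201 encodes p16Ink4a, an inhibitor of Cdk4 and Cdk6, and Cdkn2a-202 encodes p19Arf, which stabilises p53. Of 1172 exon bases in the 2 transcripts, 575 belong to both, and the tables give 1 count for the gene, so the 2 products cannot be told apart. The 250 bases before the start sites of these 3 transcripts are shown because the levels of the 2 neighbouring genes moved together, with capitals for E2F words (TTTCGCGC, TTTGGCGC, TTTCCCGC and TTTGCCGC) and GC boxes (GGGCGG) on either strand. The sequences are from GRCm39 with GENCODE vM39 start sites, read 5′ to 3′ on the minus strand, at chr4:89200430-89200679, chr4:89212891-89213140 and chr4:89229277-89229526.
Cdkn2a-201 (p16Ink4a): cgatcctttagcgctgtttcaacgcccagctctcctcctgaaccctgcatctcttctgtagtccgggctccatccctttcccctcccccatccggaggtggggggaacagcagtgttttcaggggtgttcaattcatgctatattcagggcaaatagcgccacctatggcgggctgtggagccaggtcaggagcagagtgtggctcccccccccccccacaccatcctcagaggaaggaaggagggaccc
Cdkn2a-202 (p19Arf): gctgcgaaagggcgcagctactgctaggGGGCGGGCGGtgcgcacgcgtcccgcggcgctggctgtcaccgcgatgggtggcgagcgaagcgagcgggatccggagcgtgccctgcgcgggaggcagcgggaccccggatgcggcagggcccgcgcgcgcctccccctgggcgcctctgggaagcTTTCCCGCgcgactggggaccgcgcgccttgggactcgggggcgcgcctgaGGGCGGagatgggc
Cdkn2b-201 (p15Ink4b): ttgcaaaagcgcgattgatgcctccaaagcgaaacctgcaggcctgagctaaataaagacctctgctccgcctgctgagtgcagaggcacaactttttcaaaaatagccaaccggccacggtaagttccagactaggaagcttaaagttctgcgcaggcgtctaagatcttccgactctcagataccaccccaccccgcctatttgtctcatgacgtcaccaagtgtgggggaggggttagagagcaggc
The p19Arf window held 38 CG dinucleotides, 1 E2F word at 65 bases before the start site and 3 GC boxes, whereas the p16Ink4a window held 7 CG dinucleotides, the *Cdkn2b* window 11, and neither held one of these words. Over the windows of 21770 protein-coding genes, 2.28% held an E2F word and 36.3% a GC box, and the median was 8 CG dinucleotides.

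*Cdkn2a* was at 13.9, 12.1, 8.35 and 13.7 CPM in proliferating *Kat6a*+/+ replicates 1 to 4 and at 45.4, 57.2, 54.5 and 49.96 CPM in their *Kat6a*–/– counterparts. All *Kat6a*–/– libraries were above all others of that condition, and the log2 fold-change was 2.23 (SE 0.19, FDR 1.3e-05). In differentiating NSPCs, *Kat6a*+/+ libraries were at 9.08, 21.5, 7.38 and 19.4 CPM and *Kat6a*–/– libraries at 229, 177, 179 and 99.5 CPM. The lowest *Kat6a*–/– library was again above the highest of the other groups. The log2 fold-change was 4.10 (SE 0.30, FDR 2.49e-06), which was the 28th largest rise among 13339 genes. The fit weighted libraries by quality, with 42.0% and 34.9% of the *Kat6a*+/+ weight on replicates 1 and 3, the 2 lowest in *Cdkn2a*, and 69.0% of the *Kat6a*–/– weight on replicate 3. The fitted fold was 17.1, and the ratio of the unweighted mean CPM was 11.9.

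*Cdkn2b*, whose product p15Ink4b is induced by TGF-β signalling, was at 4.37, 5.83, 3.12 and 6.34 CPM in proliferating *Kat6a*+/+ and 9.74, 9.66, 11.7 and 17.9 CPM where both alleles were lost. The groups did not overlap, with replicate 4 the highest of the *Kat6a*–/– libraries (log2 fold-change 1.44, SE 0.23, FDR 0.000609). In differentiating NSPCs, *Kat6a*+/+ libraries were at 20.7, 25.8, 16.2 and 21.9 CPM and *Kat6a*–/– libraries at 95.02, 124, 82.0 and 84.4 CPM. The lowest *Kat6a*–/– library exceeded the highest *Kat6a*+/– library, 34.8 CPM, as well (log2 fold-change vs. *Kat6a*+/+ 2.13, SE 0.16, FDR 2.49e-06). Over the 22 alternative settings and left-out libraries per condition, the log2 fold-change of *Cdkn2b* stayed between 1.23 and 1.52 in proliferating and 1.97 and 2.48 in differentiating NSPCs, and that of *Cdkn2a* between 2.10 and 2.56 and between 3.58 and 4.30, all called.

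The other 2 Ink4 genes, which are the family's members commonly expressed in embryonic progenitors, moved the other way. *Cdkn2c* (p18Ink4c; chromosome 4, 109517957 to 109524386) was at 71.6 to 109 CPM in all 12 proliferating libraries, and the difference of *Kat6a*–/– from *Kat6a*+/+ was 0.07 (log2, SE 0.11, FDR 0.616). In differentiating NSPCs, it was at 93.1, 82.9, 96.7 and 62.4 CPM in *Kat6a*+/+ and at 38.3, 33.3, 34.8 and 44.0 CPM in *Kat6a*–/– libraries. Each *Kat6a*–/– library was below all *Kat6a*+/+ and *Kat6a*+/– libraries, and the log2 fold-change was −1.28 (SE 0.13, FDR 1.09e-05). *Cdkn2d* (p19Ink4d; chromosome 9, 21199700 to 21202727) ranged from 32.3 to 43.5 CPM in proliferating *Kat6a*+/+ and from 24.6 to 28.5 CPM in *Kat6a*–/– NSPCs (log2 fold-change −0.39, SE 0.11, FDR 0.0138). In differentiating NSPCs, the ranges were 25.0 to 36.4 and 16.3 to 23.8 CPM (−0.64, SE 0.11, FDR 0.000575). The groups did not overlap in either condition. The proliferating call was lost with a fixed litter term (FDR 0.0582) and without *Kat6a*+/+ replicate 1 (FDR 0.0509), and the differentiating call with a fixed litter term (FDR 0.189), with sex as a term (FDR 0.0621) and without *Kat6a*–/– replicate 3 (FDR 0.0960).

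*Cdkn1b* encodes p27Kip1, the main Cip/Kip protein of resting progenitors, and *Cdkn1c* encodes p57Kip2, an imprinted inhibitor expressed from the maternal allele. They lie at chromosome 6, 134897364 to 134902476, and chromosome 7, 143012069 to 143014806. Both fell in both conditions, and the 250 bases before the start site of *Cdkn1b* are shown with the GC box in capitals (chr6:134897114-134897363, plus strand), because its fall was of nearly the same size in both.
Cdkn1b-202 (p27Kip1): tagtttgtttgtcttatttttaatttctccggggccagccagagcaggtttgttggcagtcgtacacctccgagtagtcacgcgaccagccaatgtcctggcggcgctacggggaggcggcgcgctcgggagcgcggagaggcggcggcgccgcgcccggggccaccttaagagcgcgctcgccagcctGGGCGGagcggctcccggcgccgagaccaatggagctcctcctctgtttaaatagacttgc
The *Cdkn1b* window held 28 CG dinucleotides and 1 GC box at 61 bases before the start site. It held no E2F word and no E-box (CACGTG), which was found in 6.26% of all windows.

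*Cdkn1b* was at 128, 138, 110 and 138 CPM in proliferating *Kat6a*+/+ and at 63.4, 71.4, 75.2 and 58.4 CPM in *Kat6a*–/– NSPCs. Every *Kat6a*–/– library was below every other library of the condition, the lowest *Kat6a*+/– library being at 81.2 CPM (log2 fold-change −0.85, SE 0.14, FDR 0.000777). In differentiating NSPCs, *Kat6a*+/+ libraries lay at 194, 205, 198 and 211 CPM and *Kat6a*–/– libraries at 120, 93.0, 114 and 113 CPM. The gap was wide next to the spread within groups, and the log2 fold-change of −0.80 (SE 0.06, FDR 2.49e-06) was nearly the same as in proliferating NSPCs. Under all 22 alternatives per condition, it stayed called and between −0.96 and −0.74 in proliferating and −0.95 and −0.76 in differentiating NSPCs.

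*Cdkn1c* was at 12.46, 16.7, 9.76 and 10.0 CPM in proliferating *Kat6a*+/+ and at 4.64, 6.19, 3.94 and 3.99 CPM in *Kat6a*–/– NSPCs, without overlap (log2 fold-change −1.32, SE 0.28, FDR 0.0041). In differentiating NSPCs, *Kat6a*+/+ libraries spread over 32.3, 6.55, 32.8 and 13.5 CPM, and *Kat6a*–/– libraries were at 2.68, 3.19, 2.23 and 6.01 CPM. The groups were separated by little, as *Kat6a*+/+ replicate 2 was close to *Kat6a*–/– replicate 4. The log2 fold-change was −3.21 (SE 0.53, FDR 0.000353), the 59th largest fall among 13339 genes, and −1.74 (FDR 0.101) with sex as a term. The call was also lost with a fixed litter term (FDR 0.0821) and without *Kat6a*–/– replicate 1 (FDR 0.0968) or replicate 3 (FDR 0.160). *Cdkn1c* shares 29.0% of its exon bases with a long noncoding RNA on the opposite strand, and without the strand setting of the counting, which is not given in the sources used here, their reads cannot be told apart.

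*Cdkn1a* (p21Cip1; chromosome 17, 29309936 to 29319701), the inhibitor that p53 induces after DNA damage, was at 214 to 315 CPM in proliferating *Kat6a*+/+ and 259 to 439 CPM in *Kat6a*–/– NSPCs. The ranges overlapped, and the difference of 0.33 (log2, SE 0.17, FDR 0.151) did not pass the test except with a fixed litter term (0.29, FDR 0.0353). In differentiating NSPCs, *Kat6a*+/+ libraries were at 93.6, 191, 104 and 79.1 CPM and *Kat6a*–/– libraries at 953, 233, 596 and 239 CPM. All *Kat6a*–/– libraries were above the *Kat6a*+/+ range, with replicates 1 and 3 far above replicates 2 and 4. The log2 fold-change was 2.48 (SE 0.33, FDR 8.02e-05). Leaving out *Kat6a*–/– replicate 1 gave 1.82 (FDR 0.0747), and leaving out replicate 3 gave 1.84 (FDR 0.114).

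The D cyclins differed from each other. *Ccnd1* (chromosome 7, 144483668 to 144493662), which encodes cyclin D1 and responds to growth factors, was at 867 to 1088 CPM in all 12 proliferating libraries, with a *Kat6a*–/– difference of −0.03 (log2, SE 0.06, FDR 0.781). In differentiating NSPCs, *Kat6a*+/+ libraries were at 24.5, 51.4, 18.4 and 17.8 CPM and *Kat6a*+/– libraries at 45.9, 167, 36.9 and 55.2 CPM. The *Kat6a*–/– libraries were at 499, 20.5, 262 and 77.7 CPM. Replicate 2 of the *Kat6a*–/– group lay within the *Kat6a*+/+ range and the other 3 above it. The log2 fold-change was 3.34 (SE 0.47, FDR 0.000113), the 66th largest rise, in a fit that gave *Kat6a*–/– replicate 2 a weight of 4.22% of its group. The call was lost without quality weights (2.24, FDR 0.0775), with a fixed litter term (3.61, FDR 0.0634) and without *Kat6a*–/– replicate 1 (1.61, FDR 0.266) or replicate 3 (1.51, FDR 0.376). Of the exon bases of *Ccnd1*, 48.4% are shared with LTO1 on the opposite strand.

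*Ccnd2* (chromosome 6, 127102125 to 127129156), which encodes cyclin D2 of cortical progenitors, was at 1202, 1116, 1003 and 1090 CPM in proliferating *Kat6a*+/+ and at 1480, 1450, 1531 and 1852 CPM in *Kat6a*–/– NSPCs. All *Kat6a*–/– libraries were above all others, and the log2 fold-change was 0.54 (SE 0.10, FDR 0.00147), called under all 22 alternatives. In differentiating NSPCs, the ranges of 1294 to 2223 CPM in *Kat6a*+/+ and 1239 to 2639 CPM in *Kat6a*–/– libraries overlapped, and the difference was 0.35 (log2, SE 0.17, FDR 0.103). This difference passed the test without *Kat6a*–/– replicate 2 (0.40, FDR 0.00657) or replicate 4 (0.41, FDR 0.0281). *Ccnd3* (chromosome 17, 47815767 to 47910624), which encodes cyclin D3, was at 50.1 to 62.3 CPM in the proliferating *Kat6a*–/– and *Kat6a*+/+ libraries, with a difference of −0.10 (log2, SE 0.08, FDR 0.390). In differentiating NSPCs, it rose from 102 to 123 CPM in *Kat6a*+/+ to 119 to 161 CPM in *Kat6a*–/– libraries (log2 fold-change 0.43, SE 0.09, FDR 0.00166), with overlap, and the call was lost under 6 of 22 alternatives, with FDR up to 0.357 without *Kat6a*–/– replicate 3. The others were the fits without quality weights (FDR 0.116), with a fixed litter term (FDR 0.148), with edgeR (FDR 0.109) or DESeq2 (FDR 0.0828), and without *Kat6a*–/– replicate 1 (FDR 0.348).

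**Figure D3:**
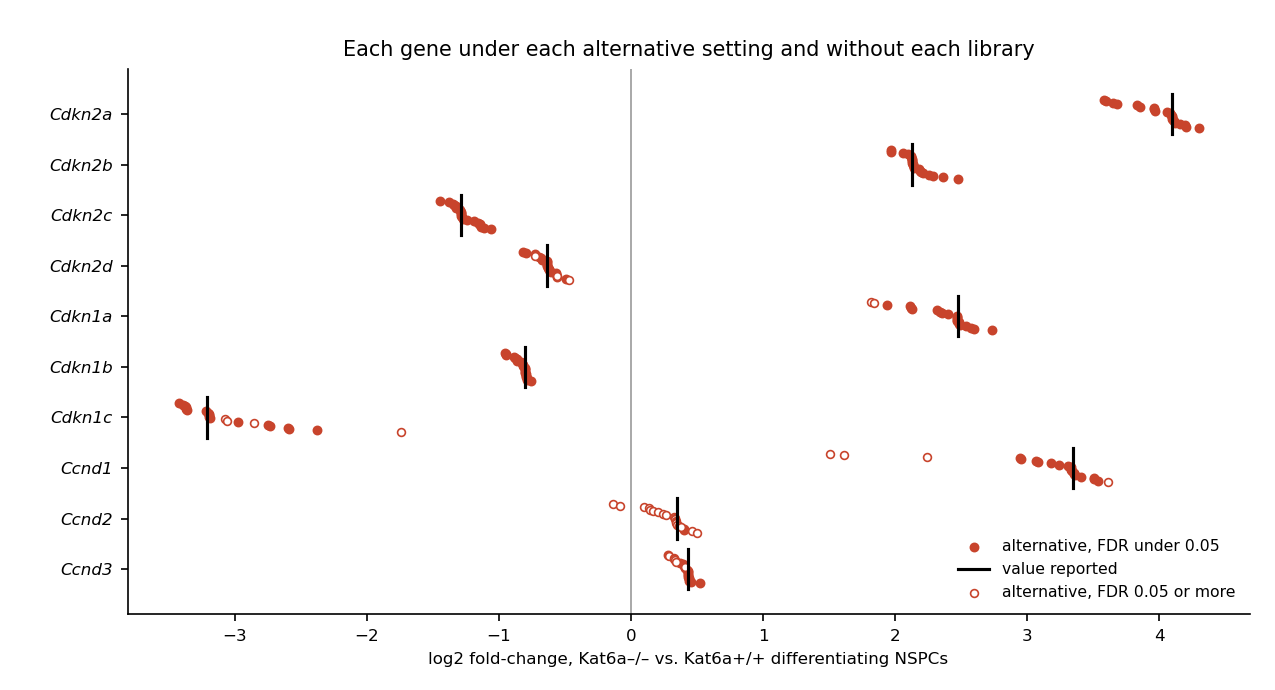
Log2 fold-change of each gene in differentiating *Kat6a*–/– vs. *Kat6a*+/+ NSPCs under each of 22 alternative settings and left-out libraries, with a black line at the reported value and open points where the FDR was 0.05 or more. *Cdkn2a*, *Cdkn2b*, *Cdkn2c* and *Cdkn1b* have filled points only, *Ccnd1* reaches from 1.51 to 3.61, and the points of *Ccnd2* lie on both sides of 0.

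Litters 4633 and 4746 held both genotypes in both conditions, with 1 or 2 libraries each. In differentiating NSPCs, the difference of *Kat6a*–/– from *Kat6a*+/+ on the log2 CPM scale within these litters was 4.77 and 3.20 for *Cdkn2a*, 2.74 and 1.90 for *Cdkn2b*, −1.44 and −0.84 for *Cdkn2c* and −0.91 and −0.88 for *Cdkn1b*. It was −3.49 and −2.60 for *Cdkn1c*, 2.18 and 2.91 for *Cdkn1a* and 2.46 and 3.88 for *Ccnd1*. All 9 called genes kept their direction within both litters, as did the 6 called in proliferating NSPCs, where *Cdkn2a* differed by 2.61 and 1.99. These are the same libraries, and for 7 of the 9 and all of the 6 the groups did not overlap, which fixed the direction in advance. Only *Ccnd1* and *Ccnd3* in differentiating NSPCs could have gone the other way.

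In *Kat6a*+/– vs. *Kat6a*+/+ NSPCs, none of the 10 genes passed an FDR of 0.05 in limma, in edgeR or in DESeq2 in either condition. With limma, 0% of all genes were called in either condition. At an unadjusted p under 0.05, 2 of 10 genes were found in proliferating NSPCs, where 7.43% of all genes were. They were *Cdkn1c* (log2 fold-change −0.59, SE 0.21, FDR 0.529) and *Cdkn2b* (0.56, SE 0.24, FDR 0.635). In differentiating NSPCs, 6 of 10 genes had an unadjusted p under 0.05, where 14.4% of all genes did. *Cdkn2b* was 0.61 higher (log2, SE 0.17, FDR 0.200), *Cdkn1b* was lower (−0.20, SE 0.06, FDR 0.227) and *Cdkn2a* was 0.85 higher (SE 0.32, FDR 0.275), and the others were *Ccnd1* at 1.24, *Cdkn1c* at −1.27 and *Ccnd3* at 0.23. The *Cdkn1c* value rested on single libraries and settings: it was −0.34 without *Kat6a*+/– replicate 1, −1.69 without replicate 2, −0.45 without quality weights and −0.09 with sex as a term, and −2.19 and 1.56 within litters 4633 and 4746. Its group means were 18.6 and 21.3 CPM in *Kat6a*+/– and *Kat6a*+/+ libraries. These differences and those of *Kat6a*–/– NSPCs were taken against the same *Kat6a*+/+ libraries. The *Kat6a*+/– and *Kat6a*+/+ libraries overlapped for all 10 genes in both conditions, and 4.53% of all genes in proliferating and 2.79% in differentiating NSPCs did not overlap. Without *Kat6a*+/– replicate 3, *Cdkn2b* (0.78, FDR 0.0258) and *Cdkn1b* (−0.25, FDR 0.0481) passed the test in differentiating NSPCs.

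In proliferating *Kat6a*–/– vs. *Kat6a*+/– NSPCs, 3 genes were higher, namely *Cdkn2a* (log2 fold-change 1.98, FDR 0.000126), *Cdkn2b* (0.87, FDR 0.0212) and *Ccnd2* (0.44, FDR 0.00871), where 8.47% of all genes were called higher. The 2 genes *Cdkn1b* (−0.71, FDR 0.00472) and *Cdkn2d* (−0.42, FDR 0.0182) were lower, where 6.30% were called lower. The *Cdkn2b* call was lost without a litter term (FDR 0.0538), with edgeR (FDR 0.0601) and without *Kat6a*+/– replicates 1 (FDR 0.0621) or 2 (FDR 0.0576) or *Kat6a*–/– replicate 4 (FDR 0.106). Leaving out *Kat6a*+/– replicate 1 (FDR 0.0626) or *Kat6a*–/– replicate 4 (FDR 0.0892) ended that of *Cdkn2d*. In differentiating NSPCs, 4 genes were higher (*Cdkn2a* 3.24, *Cdkn1a* 2.22, *Ccnd1* 2.10, *Cdkn2b* 1.51) and 4 lower (*Cdkn1c* −1.94, *Cdkn2c* −1.26, *Cdkn1b* −0.60, *Cdkn2d* −0.58), with 19.1% and 18.5% of all genes called. *Cdkn2a* and *Cdkn2b* were called under all 22 alternatives of this contrast. The calls of *Cdkn1a*, *Cdkn1c*, *Cdkn2d* and *Ccnd1* were lost without *Kat6a*–/– replicate 1 and without replicate 3, and that of *Ccnd1* also without *Kat6a*+/– replicate 1 (1.86, FDR 0.0745). That of *Cdkn1c* was lost without *Kat6a*+/– replicate 3 too (−1.53, FDR 0.0512), and *Ccnd3* was called without *Kat6a*+/– replicate 2 (0.25, FDR 0.0318). A fixed litter term ended the calls of *Cdkn1b* (FDR 0.0510), *Cdkn2c* (FDR 0.0533), *Cdkn1a* (FDR 0.0724), *Cdkn1c* (FDR 0.141), *Cdkn2d* (FDR 0.165) and *Ccnd1* (FDR 0.407). *Cdkn1a* was not called with edgeR (FDR 0.0548) or without quality weights (FDR 0.0648), and *Cdkn1c* not with edgeR (FDR 0.0531), without the filter (FDR 0.0872), without quality weights (FDR 0.0976) or with sex as a term (FDR 0.124). *Ccnd1* also missed the threshold without the filter (1.80, FDR 0.0731), with edgeR (1.51, FDR 0.24), with DESeq2 (1.51, FDR 0.197), without quality weights (0.94, FDR 0.504) and with sex as a term (0.69, FDR 0.486).

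Differentiating and proliferating NSPCs of the same genotype were compared for the 10 genes. The RNA kit differed along with the culture, so kit and culture cannot be told apart, and a change with culture stands for both here and below. In *Kat6a*+/+ NSPCs, *Cdkn2b* (log2 fold-change 2.16), *Ccnd3* (0.89), *Ccnd2* (0.71) and *Cdkn1b* (0.66) rose, and *Ccnd1* (−5.31), *Cdkn1a* (−1.25) and *Cdkn2d* (−0.32) fell, where 36.7% of 13590 genes were called higher and 36.2% lower. *Ccnd1* went from 995 ± 78.4 to 28.0 ± 15.9 CPM (SD, n = 4). In *Kat6a*+/– NSPCs, the same 4 genes rose, and *Ccnd1* (−4.02) and *Cdkn1a* (−1.03) fell (35.4% and 34.2% of all genes). In *Kat6a*–/– NSPCs, *Cdkn2b* (2.97), *Cdkn2a* (1.67), *Ccnd3* (1.36) and *Cdkn1b* (0.72) rose, and *Ccnd1* (−2.98), *Cdkn2c* (−1.31) and *Cdkn2d* (−0.41) fell (35.8% and 33.5%). *Cdkn1a* in *Kat6a*–/– NSPCs was 0.42 higher on differentiation (SE 0.40, FDR 0.363), with −0.02 without *Kat6a*–/– differentiating replicate 1, 0.73 without replicate 4 and 0.84 (FDR 0.0341) with quality weights. *Ccnd2* was 0.29 higher (SE 0.20, FDR 0.199), and called with quality weights (0.54, FDR 0.0048) and without *Kat6a*–/– differentiating replicate 2 (0.47, FDR 0.0262). The *Cdkn1a* fall in *Kat6a*+/– NSPCs was lost without *Kat6a*+/– differentiating replicates 1 (FDR 0.105) or 3 (FDR 0.0750) or proliferating replicates 1 (FDR 0.0577) or 4 (FDR 0.104). In *Kat6a*+/+ NSPCs it was lost without both libraries of the embryo label with unmatched sex (−1.07, FDR 0.0533).

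The small fall of *Cdkn2d* on differentiation was sensitive. In *Kat6a*+/+ NSPCs (SE 0.13, FDR 0.0268) it was lost without *Kat6a*+/+ proliferating replicates 1 (−0.19, FDR 0.238) or 4 (FDR 0.0774), *Kat6a*+/+ differentiating replicates 1 (FDR 0.0613), 2 (FDR 0.0686) or 4 (−0.18, FDR 0.203) or *Kat6a*–/– proliferating replicate 1 (FDR 0.0501). The *Kat6a*+/+ call was also lost with edgeR (FDR 0.0524), DESeq2 (FDR 0.0706), library totals (FDR 0.0547) or a fixed litter term (FDR 0.0789). It was lost too without both libraries of the embryo label with unmatched sex (−0.20, FDR 0.254). In *Kat6a*–/– NSPCs the fall was lost without *Kat6a*–/– differentiating replicate 2 (FDR 0.0713) or proliferating replicate 2 (FDR 0.0564). In *Kat6a*+/– NSPCs *Cdkn2d* passed the test only without *Kat6a*+/– differentiating replicate 2 (−0.31, FDR 0.0481) or with quality weights (−0.32, FDR 0.0341).

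The test of the interaction asked whether the *Kat6a*–/– difference itself changed between conditions. It did for *Cdkn2a*, whose difference was 1.60 larger on the log2 scale in differentiating NSPCs (SE 0.45, FDR 0.0213), and for *Cdkn2c*, whose difference was lower by −1.17 (SE 0.21, FDR 0.000965), where 6.36% of 13590 genes were called higher and 7.58% lower. *Cdkn2c* did not pass the test for a change with culture in *Kat6a*+/+ NSPCs (−0.14, SE 0.14, FDR 0.380), and in *Kat6a*–/– NSPCs it went from 93.9 ± 16.8 to 37.6 ± 4.74 CPM (SD, n = 4). *Cdkn2a* likewise did not pass it in *Kat6a*+/+ NSPCs (0.07, SE 0.37, FDR 0.872) and went from 51.8 ± 5.20 to 171 ± 53.4 CPM in *Kat6a*–/– NSPCs. The *Cdkn2a* interaction was lost without *Kat6a*+/+ differentiating replicates 1 (1.40, FDR 0.0557) or 3 (1.28, FDR 0.0614), *Kat6a*+/+ proliferating replicate 1 (1.42, FDR 0.0992), *Kat6a*–/– proliferating replicate 1 (1.48, FDR 0.0504) or both libraries of the embryo label with unmatched sex (1.27, FDR 0.172). *Cdkn1a* (1.67, FDR 0.0521), *Ccnd1* (2.33, FDR 0.105) and *Ccnd3* (0.46, FDR 0.0757) missed the threshold. *Cdkn1a* and *Ccnd1* passed it with edgeR (FDR 0.0346 and 0.0194) and with DESeq2 (FDR 0.00973 and 0.00366). *Cdkn1a* also passed it without *Kat6a*+/+ differentiating replicate 2 (FDR 0.0285), *Kat6a*+/– differentiating replicates 1 (FDR 0.0474) or 4 (FDR 0.0476) or *Kat6a*–/– differentiating replicates 2 (FDR 0.0156) or 4 (FDR 0.0182). Without *Kat6a*–/– differentiating replicate 2, *Ccnd1* (3.15, FDR 0.00210) and *Ccnd3* (0.48, FDR 0.0482) passed it too. With quality weights, which the fit across conditions did not use, *Cdkn1a* (2.24, FDR 0.000439), *Ccnd1* (3.22, FDR 0.000122), *Ccnd3* (0.59, FDR 0.00144) and *Cdkn2b* (0.97, FDR 0.0128) all passed it. For *Cdkn1b*, the interaction was 0.06 (SE 0.18, FDR 0.871).

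Levels of different genes were compared as RPKM (CPM divided by gene length in kilobases). In proliferating *Kat6a*+/+ NSPCs, *Ccnd1* was the highest of the 10 (264 ± 20.8 RPKM), followed by *Ccnd2* (191 ± 14.1), *Cdkn1a* (131 ± 20.5), *Cdkn1b* (53.3 ± 5.55), *Cdkn2c* (40.6 ± 4.14), *Cdkn2d* (29.3 ± 3.89), *Ccnd3* (26.03 ± 1.52), *Cdkn2a* (10.6 ± 2.27), *Cdkn1c* (6.35 ± 1.67) and *Cdkn2b* (3.53 ± 1.05) (SD, n = 4). Only *Cdkn2d* and *Ccnd3*, and *Cdkn2a* and *Cdkn1c*, overlapped with their neighbour in that order. In differentiating *Kat6a*+/+ NSPCs, *Ccnd2* led (315 ± 68.9 RPKM), then *Cdkn1b* (84.0 ± 3.13) and *Cdkn1a* (57.4 ± 24.7), which overlapped, and *Ccnd1* was last (7.44 ± 4.21). In differentiating *Kat6a*–/– NSPCs, *Ccnd2* (345 ± 111 RPKM), *Cdkn1a* (248 ± 169), *Cdkn2a* (151 ± 47.0) and *Cdkn2b* (69.2 ± 13.8) led, each overlapping with the next, and *Cdkn1b* was at 45.7 ± 4.89 and *Cdkn1c* last at 1.83 ± 0.882.

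Summed over the 7 inhibitors, the level was 275 ± 30.7, 290 ± 45.4 and 307 ± 35.5 RPKM in proliferating *Kat6a*+/+, *Kat6a*+/– and *Kat6a*–/– NSPCs (SD, n = 4). In differentiating NSPCs, it was 241 ± 28.1, 269 ± 49.8 and 548 ± 208 RPKM, and the lowest *Kat6a*–/– library, 353 RPKM, was above the highest of the other groups, 312 RPKM. The make-up of this sum differed as well. In differentiating NSPCs, *Cdkn1a* held 23.2% of it in *Kat6a*+/+ and 41.6% in *Kat6a*–/– libraries, where it ranged from 26.8% to 56.8%. *Cdkn2a* held 5.22% and 28.1%, and *Cdkn2b* 6.31% and 14.1%. *Cdkn1b* held 35.1% and 9.11%, *Cdkn2c* 15.4% and 3.42%, *Cdkn2d* 9.98% and 3.25% and *Cdkn1c* 4.70% and 0.409%. For the D cyclins, *Ccnd1* held 54.9% ± 1.71 of the sum of the 3 in proliferating *Kat6a*+/+ and 46.0% ± 2.67 in *Kat6a*–/– NSPCs, with ranges of 52.4% to 56.0% and 42.6% to 48.1%. *Ccnd2* held 39.7% and 49.7%, respectively. In differentiating NSPCs, *Ccnd2* held 84.6% in *Kat6a*+/+ and 75.7% in *Kat6a*–/– libraries, and *Ccnd1* 1.94% and 10.1% (2.00% to 20.0% among *Kat6a*–/– libraries). These sums and shares were not tested.

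**Figure D4:**
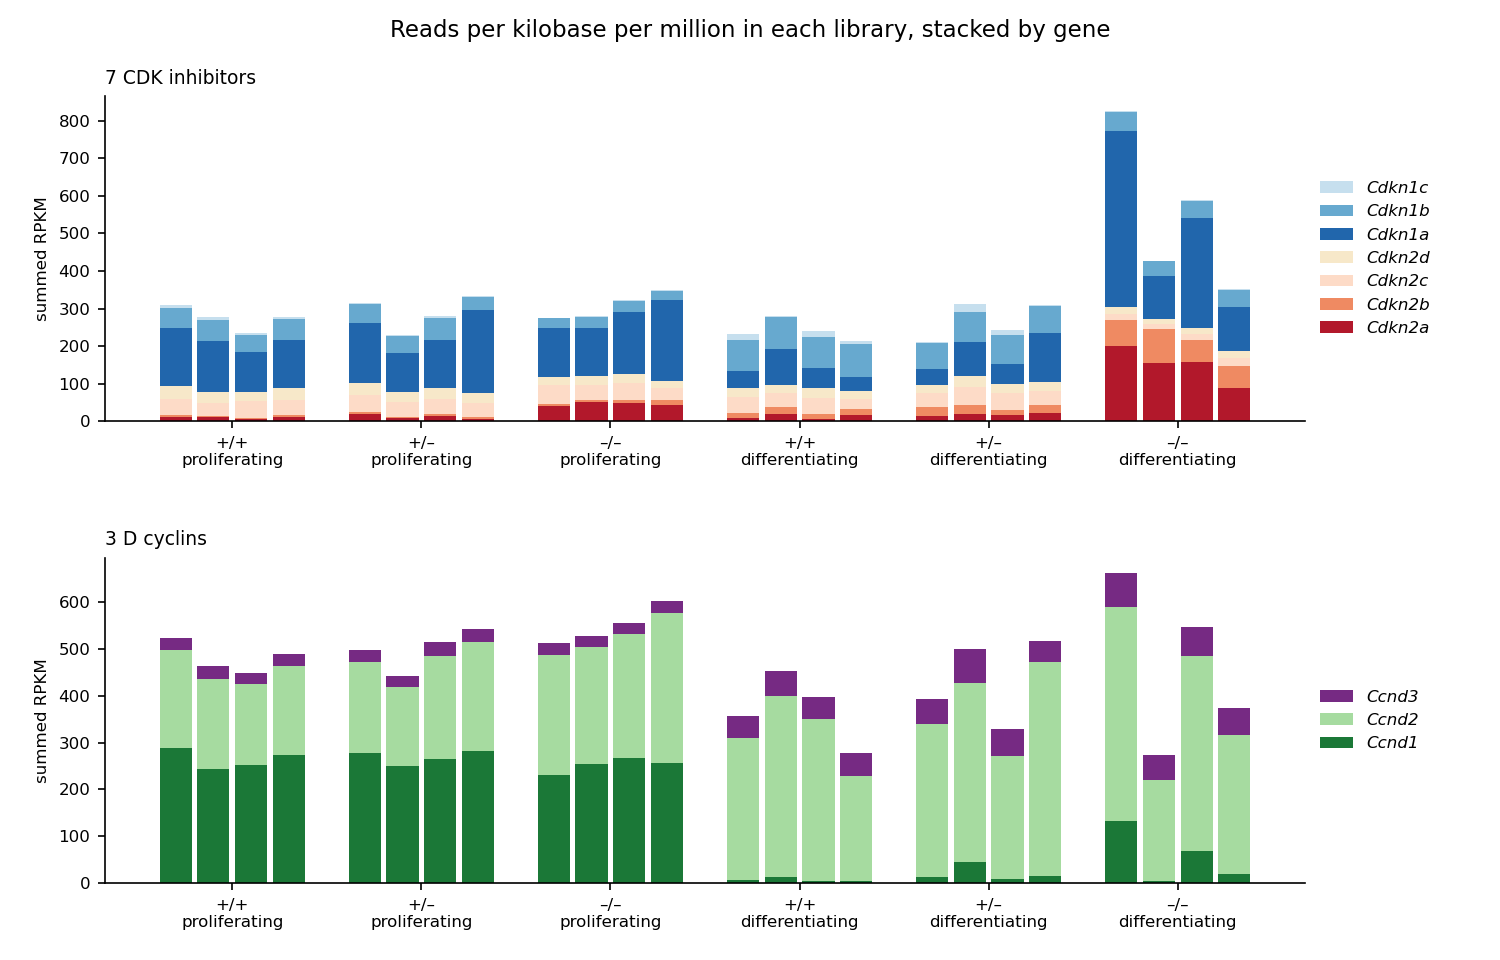
RPKM in each library stacked over the 7 inhibitors (above) and the 3 D cyclins (below), 4 bars per group in the order of replicates. The inhibitor bars of differentiating *Kat6a*–/– NSPCs reach 353 to 824 RPKM, and *Ccnd1* takes 42.6% or more of the D cyclin bars of proliferating *Kat6a*–/– and *Kat6a*+/+ NSPCs and at most 20.0% of any differentiating bar.

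The genes around the 10 were examined on mm39. Of the 18 nearest tested protein-coding neighbours outside the set, 2 were higher and 2 lower in proliferating and 5 higher and 5 lower in differentiating *Kat6a*–/– NSPCs. These counts are near or below the background of 16.2% and 13.8% in proliferating and 26.7% and 27.7% in differentiating NSPCs. Within 1000 kb of the *Cdkn2a* start site, *Cdkn2b* was the only other gene called in proliferating NSPCs, of 3 tested. In differentiating NSPCs, 3 of 4 were higher, namely *Cdkn2b*, *Mtap* (log2 fold-change 0.60, SE 0.10, FDR 0.000248) and *Hacd4* (1.40, SE 0.27, FDR 0.000881), with *Mtap* 93389 bp away. *Elavl2*, the next tested gene on the other side at 1909629 bp, was lower in both conditions (−0.68, FDR 0.0051, and −2.45, FDR 7.15e-06). Around *Cdkn1c*, which lies in an imprinted domain, *Tssc4* (0.56, FDR 0.0116, and 1.28, FDR 3.02e-05) and *Cd81* (0.49, FDR 0.00149, and 0.92, FDR 1.68e-05) were higher in proliferating and differentiating NSPCs, and *Dhcr7* was lower in both (−0.44, FDR 0.0118, and −0.67, FDR 0.00238). Within 1000 kb of its start site, 2 of 13 other tested genes were higher and 2 lower in proliferating and 4 of 14 higher and 3 lower in differentiating NSPCs.

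**Figure D5:**
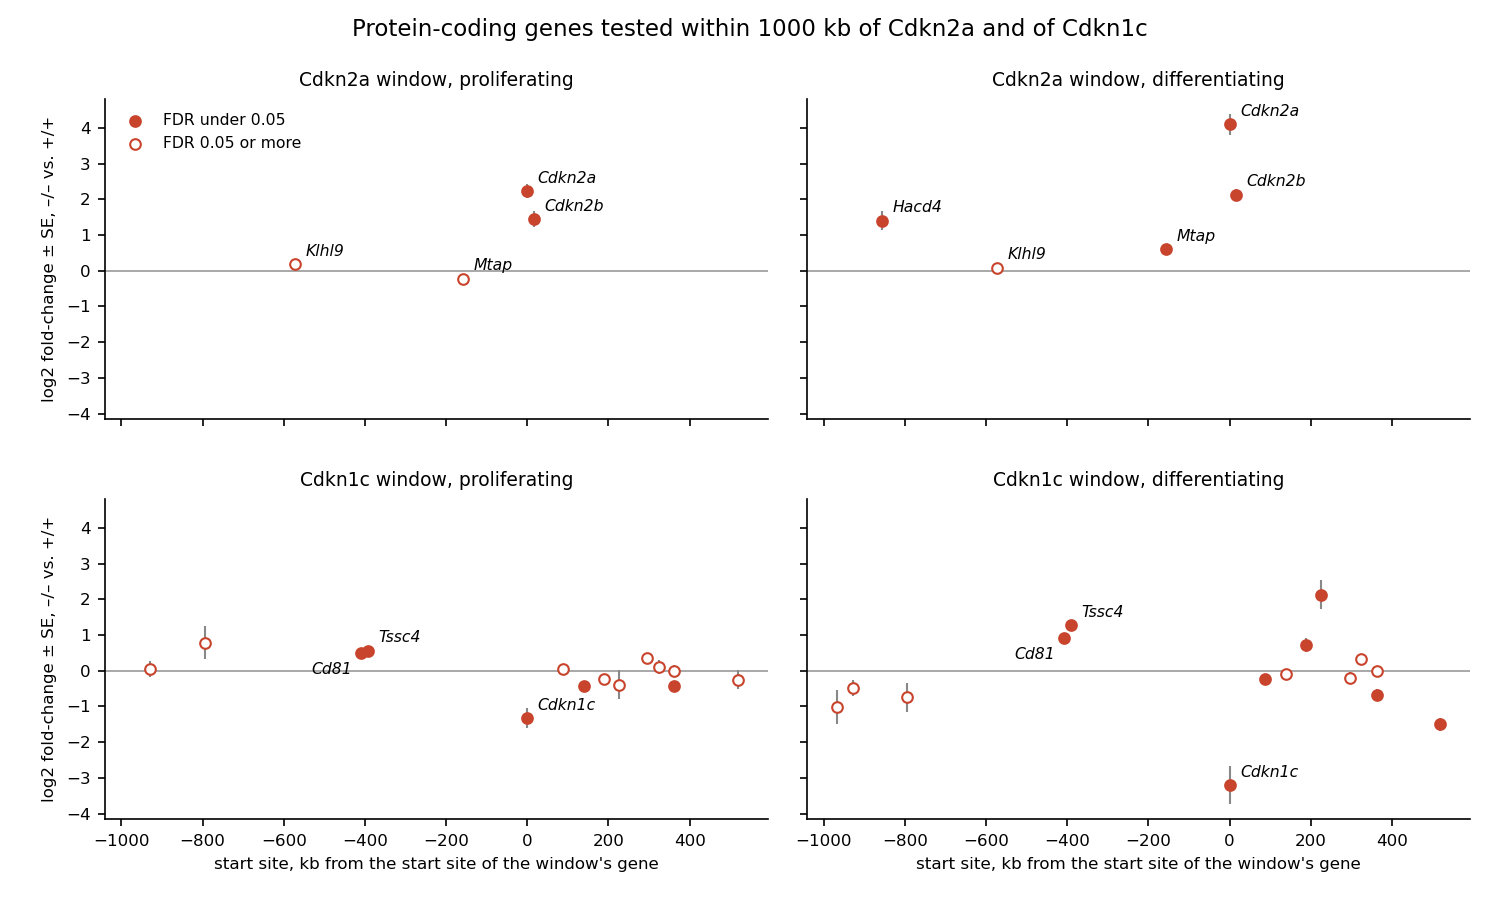
Log2 fold-change in *Kat6a*–/– vs. *Kat6a*+/+ NSPCs with its standard error for tested protein-coding genes, against the distance of their start site from that of *Cdkn2a* (above) or *Cdkn1c* (below) in kb, with filled points for an FDR under 0.05. *Cdkn2a* and *Cdkn2b* stand above the rest of their window at 4.10 and 2.13 in differentiating NSPCs, and *Cdkn1c* is the lowest point of its window at −1.32 and −3.21.

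Genes most like each of the 10 were found by Pearson's r of log2 CPM over the 24 libraries after centring each condition, among 12627 genes. These libraries share genotype groups, depth and litters, so r is a description. *Cdkn1a* was most like *Phlda3* (r = 0.965) and *Polk* (0.954), and *Cdkn2c* most like *Rbl1* (0.968) and *Racgap1* (0.966), *Rbl1* being a retinoblastoma family gene and *Racgap1* a gene of cytokinesis. *Ccnd1* was most like *Ehd4* (0.979) and *Cald1* (0.963), *Cdkn2a* most like *Itm2b* (0.931) and *Cxcl14* (0.926), *Cdkn2b* most like *Cd81* (0.920) and *Ctsb* (0.910), *Cdkn1b* most like *Hid1* (0.939) and *Kdm2b* (0.936), and *Cdkn1c* most like *Tbc1d16* (0.943) and *Mycn* (0.923). For *Cdkn2d* (*Syce2*, 0.911, and *Mthfd2*, 0.883), *Ccnd2* (*Zfp697*, 0.885, and *Mtm1*, 0.864) and *Ccnd3* (*Nhsl2*, 0.871, and *Sgms2*, 0.845), the likeness was lower. Among the 10 themselves, r was 0.91 between *Cdkn2a* and *Cdkn2b*, 0.84 between *Cdkn1b* and *Cdkn2d*, 0.80 between *Cdkn1a* and *Ccnd1* and −0.82 between *Cdkn1b* and *Cdkn2b*.

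Partners of the 10 genes were counted from lists of textbook members, to be read against 16.2% of all tested genes called higher and 13.8% lower in proliferating and 26.7% and 27.7% in differentiating NSPCs. Of 20 G1-S genes (Cdk2, Cdk4 and Cdk6, cyclins E and A, retinoblastoma and E2F genes), 1 was higher and 4 lower in proliferating *Kat6a*–/– vs. *Kat6a*+/+ NSPCs (median log2 fold-change −0.15), and 1 was higher and 17 lower in differentiating NSPCs (−0.98). *E2f2*, an activating E2F, changed by −0.52 (FDR 0.0048) and −3.09 (FDR 2.59e-06), and the cyclin gene *Ccna2* by −3.08 (FDR 2.49e-06) in differentiating NSPCs. Of 18 cell division genes, 8 were lower in proliferating (median −0.32) and all 18 in differentiating NSPCs (−2.54), among them the topoisomerase gene *Top2a* (−3.18, FDR 2.49e-06) and the replication helicase gene *Mcm2* (−2.52, FDR 2.49e-06). None of either list was higher in proliferating NSPCs beyond the 1 G1-S gene.

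Against the background of 16.2% called higher and 13.8% lower in proliferating and 26.7% and 27.7% in differentiating NSPCs, the lists that act on the inhibitors were counted next. Of 13 p53 targets other than *Cdkn1a*, 9 were higher in proliferating (median 0.58) and 12 in differentiating *Kat6a*–/– NSPCs (1.03), and none was lower. *Ccng1*, a cyclin induced by p53, was higher by 1.15 (FDR 0.000164) in proliferating and *Phlda3*, an inhibitor of Akt, by 2.26 (FDR 1.81e-05) in differentiating NSPCs. Of 12 Polycomb genes that act on the Ink4 locus, 6 were lower in proliferating (median −0.25) and 6 lower and 1 higher in differentiating NSPCs (−0.34). *Kdm2b*, a subunit of a Polycomb complex that binds CpG islands, changed by −0.43 (FDR 0.000883) in proliferating and *Ezh2*, the H3K27 methyltransferase, by −1.55 (FDR 3.25e-06) in differentiating NSPCs. *Cbx2* changed by −0.66 (FDR 0.00115) and −1.52 (FDR 1.14e-05).

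The same background (16.2% higher and 13.8% lower, 26.7% higher and 27.7% lower) holds for the last 3 lists. Of 12 senescence-associated genes, 7 were tested in proliferating NSPCs, of which 1 was higher, namely *Igfbp3* (0.55, FDR 0.0197; list median −0.23). Of 9 tested in differentiating NSPCs, 6 were higher and 2 lower (median 1.74). Genes low in *Kat6a*+/+ may have passed the filter through the *Kat6a*–/– group, so the count of higher genes cannot be set against the background. The 2 lower ones were the lamin gene *Lmnb1* (−2.07, FDR 6e-06) and *Hmgb2* (−2.73, FDR 2.49e-06), which are known to fall in senescent cells. All 18 cell division genes were lower in the same comparison, and senescence was not tested. Of 21 tested transcription factor genes that act on the 10, 2 were higher and 7 lower in proliferating (median −0.22) and 5 higher, a share near the background, and 10 lower in differentiating NSPCs (−0.13), with *Foxo1*, which induces *Cdkn1b*, at 1.11 (FDR 7.15e-06) in differentiating NSPCs. Of 9 genes for the turnover of inhibitors and D cyclins, 1 was higher and 1 lower in proliferating (0.02) and 2 higher and 3 lower in differentiating NSPCs (−0.09). *Skp2*, which targets p27Kip1 for degradation, was lower in differentiating NSPCs (−1.35, FDR 1.83e-05). In *Kat6a*+/– NSPCs, no gene of these lists was called in either condition, where 0 of all 12276 and 13339 tested genes were called.

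Markers of other cell types moved with some of these results, and their part in the results was not tested. Counts called are to be read against 16.2% of all tested genes higher and 13.8% lower in proliferating NSPCs. In differentiating NSPCs, these shares were 26.7% and 27.7%. The filter on low counts keeps a gene with enough counts in the libraries of 1 group only. A marker low in *Kat6a*+/+ may thus be tested because it is high in *Kat6a*–/–. Counts of such markers, as of the fibroblast and meningeal ones, therefore cannot be set against these shares. Of 9 fibroblast and meningeal markers, 5 were tested in differentiating NSPCs and all 5 were higher in *Kat6a*–/–, among them *Col1a1* (5.19, FDR 2.16e-05) and *Prrx1* (1.48, FDR 4.93e-06). The summed level of the 9 ranged from 124 to 170 CPM in *Kat6a*+/+ and from 167 to 283 CPM in *Kat6a*+/– libraries. *Kat6a*–/– replicates 1 to 4 were at 573, 164, 537 and 388 CPM. The *Kat6a*–/– replicates 1 and 3, which were the highest in *Cdkn1a* and *Ccnd1*, were also the highest in this sum, while *Lum* was at 0 in all 4 and *Dcn* at most at 0.885 CPM. In proliferating *Kat6a*+/+ libraries, this sum was already 107 to 130 CPM. Each listed marker except *Prrx1* and *Foxc1* averaged at most 0.835 CPM in that group. The summed level of 7 astrocyte markers was 996 to 1633 CPM in differentiating *Kat6a*+/+ and 800, 5194, 1023 and 2339 CPM in *Kat6a*–/– libraries, the highest being replicate 2. The single markers went both ways there, with 1 of 7 called higher and 2 called lower (median log2 fold-change 0.23). In proliferating NSPCs, the astrocyte sum was 209 to 249 CPM in *Kat6a*+/+ and 426 to 563 CPM in *Kat6a*–/– libraries, with 4 of 6 tested markers higher. Among the 9 stem and progenitor markers, 2 were higher and 3 lower in proliferating *Kat6a*–/– NSPCs (median log2 fold-change −0.26). In differentiating NSPCs, 2 of them were higher and 5 lower (median −0.71). Of 9 neuron markers tested in differentiating NSPCs, 2 were higher and 5 lower, and of 6 tested oligodendrocyte markers 1 was higher and 4 lower. *Kdr* was the 1 endothelial marker tested in differentiating NSPCs and was lower (−2.52, FDR 9.86e-05). The other endothelial markers, *Pecam1*, *Cdh5*, *Tek* and *Cldn5*, were at most at 0.997 CPM in any differentiating library, so *Kdr* alone does not report endothelial cells. The 6 microglia and macrophage markers summed to at most 0.844 CPM in any library.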

How the data were processed

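Per the labels and the methods of the study, the authors prepared stranded mRNA libraries from 200 ng RNA, aligned reads to mm39 with Rsubread and made 1 table of read counts per library with featureCounts and a strict RefSeq annotation. Versions and the strand setting of the counting are not given in the sources used here. The deposited counts were raw and whole, with 26411 genes and library totals of 7826660 to 40838203. At least 31 counts lay behind every value of the 10 genes.

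Counts were scaled by TMM in edgeR (version 4.0.16, R 4.3.3). Protein-coding genes passing filterByExpr, without *Xist* and Y-linked genes, were tested with limma (version 3.58.1) and Benjamini-Hochberg adjustment over all of them, with 12276 genes in proliferating and 13339 in differentiating NSPCs. As in the study's methods, proliferating libraries were fitted by limma-voom with litter as a random block (correlation 0.287) and differentiating libraries by limma-trend (prior count 2) with quality weights. Comparisons across conditions used limma-voom on all 24 libraries (13590 genes). CPM are per TMM-scaled total. The fits were tested on simulated data. Groups came from the labels, and each library was 1 embryo. The members, the gene lists and the tests were chosen with earlier results of these data known. All 10 genes are named throughout, and from each list up to 2 genes per condition with the smallest p in *Kat6a*–/– vs. *Kat6a*+/+ NSPCs. The neighbours, alike genes and cell type markers named were chosen by position, by r and after their values were seen, respectively.

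Alternatives were edgeR's quasi-likelihood test, DESeq2 (version 1.42.0), RLE factors, library totals, no filter, other litter, sex, weight and replicate terms, and each library left out. Same-numbered libraries of different groups were not paired: r of their deviations was −0.509 to 0.541 over 60 pairs, with 10 over 0.1, although 5 pairs shared an embryo and 17 a litter. No replicate pair of a group was a duplicate (lowest chi-square per degree of freedom 4.83). Promoters came from GRCm39 with GENCODE vM39 start sites. Some items are not reported here.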

Additional observations from a re-analysis of the deposited data

Results flagged for a closer look

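*Ccnd1* in differentiating *Kat6a*+/– replicate 2 stood far from the other 3 libraries of its group, at 167 CPM against 36.9 to 55.2 CPM. It was the 1 such value among 60 groups of 4 libraries checked, where chance gives about 1 in 20. The *Kat6a*–/– difference of *Cdkn2a* from *Kat6a*+/+ NSPCs was 1.60 larger on the log2 scale in differentiating than in proliferating NSPCs, in a test of the interaction (FDR 0.0213). That of *Cdkn2c* was −1.17 in the same test (FDR 0.000965).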

How the results depend on the processing

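No alternative reversed the direction of a called result: of the log2 fold-changes of single genes recomputed, 2653 kept their side of the FDR threshold, 78 lost and 29 gained a call. In differentiating *Kat6a*–/– vs. *Kat6a*+/+ NSPCs, 9 genes were called and 5 with a fixed litter term. Against *Kat6a*+/– NSPCs, 8 were called, and 2 with a fixed litter term, 5 with edgeR and 5 without quality weights. The interaction called 2 genes, and 4 with edgeR, 4 with DESeq2, 6 with quality weights and 1 without both libraries of the embryo label with unmatched sex, a setting chosen after seeing the data. The cause was not tested. The counts in this paragraph stand without the share of all genes called under each setting. A change in them is therefore not read as particular to the 10 genes. With single libraries left out, *Kat6a*–/– vs. *Kat6a*+/+ gave 5 to 6 genes in proliferating and 4 (without *Kat6a*–/– replicate 3) to 10 (without replicate 2) in differentiating NSPCs. *Kat6a*+/– vs. *Kat6a*+/+ gave 0 and 0 to 2, *Kat6a*–/– vs. *Kat6a*+/– 3 to 5 and 4 to 9, the change of culture 6 to 7, 5 to 7 and 6 to 7, and the interaction 1 to 5. With the replicate number as a block (replicate block), the counts were 6, 0 and 5 in proliferating and 9, 0 and 8 in differentiating NSPCs, 7, 6 and 7 for culture and 2 for the interaction, equal to those reported. The exact test planned for genes that fail the filter was not run, since all 10 passed. In differentiating *Kat6a*–/– vs. *Kat6a*+/+ NSPCs, *Ccnd3*, *Ccnd1*, *Cdkn1c*, *Cdkn2d* and *Cdkn1a* each lost the call under some of the 22 alternatives.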
